A study of Mus musculus with 6 samples.

Results

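Regulatory T (Treg) cells live on interleukin (IL)-2 that other T cells make, and this report follows the RNA of 10 genes through which they sense it and its relatives. The set was fixed by name as 6 receptor subunits (*Il2ra*, *Il2rb*, *Il2rg*, *Il7r*, *Il4ra*, *Il21r*), the signal transducers *Stat5a* and *Stat5b*, and the feedback inhibitors *Cish* and *Socs2*, with the row of highest mean kept where a symbol repeats. All 10 were found, once each, among 37305 genes of the table, and all 10 passed a filter on low values (below). The tested group held 3 libraries of Treg cells of the genotype *Cd4*Cre *Junb* fl/fl. Cre there deletes *Junb*, which encodes JunB, a partner in AP-1 transcription factors. They were set against 3 control libraries from *Junb* fl/fl mice, which carry the loxP-flanked alleles without Cre. Both groups are of the C57BL/6 strain, and the study took CD4+CD25+ cells from spleen. The labels give no age. *Cd4*Cre acts in developing T cells at large, so conventional T cells of these mice lack JunB as well as Treg cells, and controls carrying Cre alone are not part of the comparison. CD25 is the protein of *Il2ra*, so the sort itself selected cells on 1 of the 10 gene products. The libraries are called *Junb*-deficient 1 to 3 and control 1 to 3, and nothing in the sources used here says how many mice each stands for, so p values measure the spread between samples.

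IL-2 binds a receptor of 3 chains: IL-2Rα (CD25, from *Il2ra*) raises the affinity, while IL-2Rβ (*Il2rb*) and the common gamma chain (*Il2rg*) carry the signal into the cell. The gamma chain is shared with the receptors for IL-4, IL-7, IL-9, IL-15 and IL-21, each of which adds a chain of its own. The kinases JAK1 and JAK3 then phosphorylate STAT5A and STAT5B, which enter the nucleus and switch on genes that include *Foxp3*, *Il2ra*, *Cish* and *Socs2*, and the last 2 encode proteins that damp cytokine signalling. In Treg cells this route maintains Foxp3 and survival, and central Treg cells rely on it more than effector Treg cells do.

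STAT5A and STAT5B arose by duplication, and their genes still lie beside each other on chromosome 11 of mm9, 8626 bases apart and facing away from each other, *Stat5b* at 100642045 to 100712038 on the minus strand and *Stat5a* at 100720665 to 100746483 on the plus strand. Over 2294 aligned bases their coding sequences were 90.8% identical, and the longest run without a difference was 324 bases. The stretch shown here, bases 835 to 954 of each coding sequence in the GENCODE transcripts of this build, holds the end of that run and is given because fragments from such stretches can match both genes. The bases before the capital close the run. The single base that differs is in capitals.

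Stat5a: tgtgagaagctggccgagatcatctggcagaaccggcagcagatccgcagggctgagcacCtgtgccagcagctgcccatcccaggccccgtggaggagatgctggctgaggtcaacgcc
Stat5b: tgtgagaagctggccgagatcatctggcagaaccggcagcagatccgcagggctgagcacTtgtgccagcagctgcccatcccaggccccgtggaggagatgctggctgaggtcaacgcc

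Of all 150-base windows of the longest *Stat5a* transcript, 4.68% also occurred in that of *Stat5b*, and 3.46% the other way round. The sources used here do not say how the authors' counting shared out such reads, so the levels of the pair are slightly uncertain relative to each other. *Cish* and *Socs2*, which belong to a family of related inhibitors, shared 0 windows of 50 bases.

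Among promoters, 8 of the 10 genes had an entry in the RefSeq set, and the 250 bases before each start were searched for TTCNNNGAA, the palindrome that STAT5 binds, and for TGANTCA, an AP-1 site. Both motifs read the same on either strand. The only match was 1 STAT motif in the promoter of *Il7r*, at -142 to -134 from the start, while 7.02% of all promoters of this length held that motif and 6.75% the AP-1 one. The *Il7r* sequence is shown for this match (in capitals), and that of *Il4ra* because *Il4ra* had the largest difference between genotypes in the unpaired fit of all 6 libraries (below). Both are from RefSeq (GRCm38.p6) and matched once in mm9, at chr15:9459632-9459881 on the minus strand and chr7:132695535-132695784 on the plus strand. A match describes the letters, not binding, and a window without one says nothing of the factor.

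Il7r: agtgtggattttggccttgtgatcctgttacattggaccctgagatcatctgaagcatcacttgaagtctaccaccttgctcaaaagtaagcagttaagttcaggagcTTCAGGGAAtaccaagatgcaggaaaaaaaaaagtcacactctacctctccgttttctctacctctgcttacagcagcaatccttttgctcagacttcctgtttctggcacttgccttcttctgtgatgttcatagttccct
Il4ra: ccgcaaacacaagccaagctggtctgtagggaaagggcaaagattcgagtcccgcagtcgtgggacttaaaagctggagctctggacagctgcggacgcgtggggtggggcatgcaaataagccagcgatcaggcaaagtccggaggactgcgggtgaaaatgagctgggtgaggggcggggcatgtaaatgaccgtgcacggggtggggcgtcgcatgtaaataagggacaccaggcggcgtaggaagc

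Expression was given as FPKM, a fragment count divided by the transcript's length and the library's mapped fragments, which can be compared between genes. Read counts are not known, and the depth relative to control 1, estimated from the lowest values, ran from 0.460 to 0.815 in *Junb*-deficient and from 0.356 to 0.490 in the other control libraries. Summed FPKM was 528608, 657992 and 575628 in *Junb*-deficient 1, 2 and 3 and 496684, 811691 and 862049 in control 1, 2 and 3. *Junb* was at 180, 49.1 and 37.8 FPKM in *Junb*-deficient 1, 2 and 3 and at 921, 298 and 256 in control 1, 2 and 3, so it was lower in every *Junb*-deficient library. On the leading principal component, with 53.4% of the variance, *Junb*-deficient 1 and control 1 scored 50.8 and 41.5 and the other 4 libraries from -39.9 to -2.94. *Foxp3*, which defines the lineage, was at 130 to 153 FPKM in *Junb*-deficient and 115 to 161 in control libraries, and *Cd4* at 205 to 226 and 139 to 241. Summed levels of 4 B cell genes (*Cd79a*, *Cd79b*, *Ms4a1*, *Cd22*) were 54.6, 23.5 and 29.6 FPKM in *Junb*-deficient 1, 2 and 3 and 28.4, 25.4 and 26.0 in control 1, 2 and 3. Those of 5 myeloid genes (*Lyz2*, *Csf1r*, *Cd14*, *Itgam*, *Fcer1g*) were 61.2, 49.3 and 35.1 against 114, 15.1 and 21.8, and 5 genes of CD8 T and NK cells (*Cd8a*, *Cd8b1*, *Ncr1*, *Klrb1c*, *Nkg7*) reached 54.2 to 118 against 68.6 to 103. Most of the myeloid sum was *Fcer1g*, at 32.5, 47.5 and 29.1 FPKM against 65.5, 12.2 and 14.9 in the same order. In *Junb*-deficient 2, *Lyz2*, *Csf1r* and *Itgam* were at 0.947, 0.726 and 0.107 FPKM, each its lowest of the 6 libraries. In bulk RNA, fewer cells of a type and less RNA per cell cannot be told apart.

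None of the 10 genes passed the unpaired test between genotypes. "Rose" and "fell" are used for genes past the thresholds the study states, a log2 difference over 0.5 in size together with p under 0.05 before adjustment. By these, 0 of the 10 rose and 0 fell, against 1.67% of 11781 genes that rose (197) and 2.89% that fell (340). Those 2 counts over all genes were 788 and 1532 without control 1, and 194 and 328 without *Junb*-deficient 1. Of the 10, 0 had an unadjusted p under 0.05, against 5.40% of all genes (2.00% higher and 3.40% lower). The test was limma on log2(FPKM + 1), over genes with a mean of at least 1 FPKM, and differences are *Junb*-deficient minus control. It is not the study's own analysis, so the counts of genes that rose and fell are not those the study reports. After Benjamini-Hochberg adjustment over all genes, adjusted p ran from 0.834 to 0.962 for the 10, and 0 genes of the whole table passed (smallest adjusted p = 0.295). All the same, 9 of the 10 differences were positive, against 44.0% of all genes, with a median of 0.32 for the 10 and -0.05 for all genes. Among other lists (below), 43 of 60 pathway genes and 12 of 14 genes induced through the T cell receptor were positive too. A further fit compared genotypes within each library number (the replicate block). Its pairing was chosen from these same data, which did not clearly tell number 2 from number 3. Its p values and intervals rest on that choice, as does every comparison within a number given below. With this block *Il4ra* and *Stat5a* rose, that is 2 of 10 against 3.58% of all genes, and 0 fell, against 7.20%. The same 2 had an unadjusted p under 0.05 in the block, which 14.5% of all genes had (9.52% as lower), and 0 of the 10 passed the adjusted test there, against 0.00849% of all genes, that is 1 lower gene (*Junb*). Within numbers 1, 2 and 3 the median of the 10 was 0.47, 0.021 and 0.47, against 0.013, -0.12 and -0.028 over all genes. The low median in number 2 rests on that pairing, since numbers 2 and 3 were not clearly told apart.

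**Figure D1:**
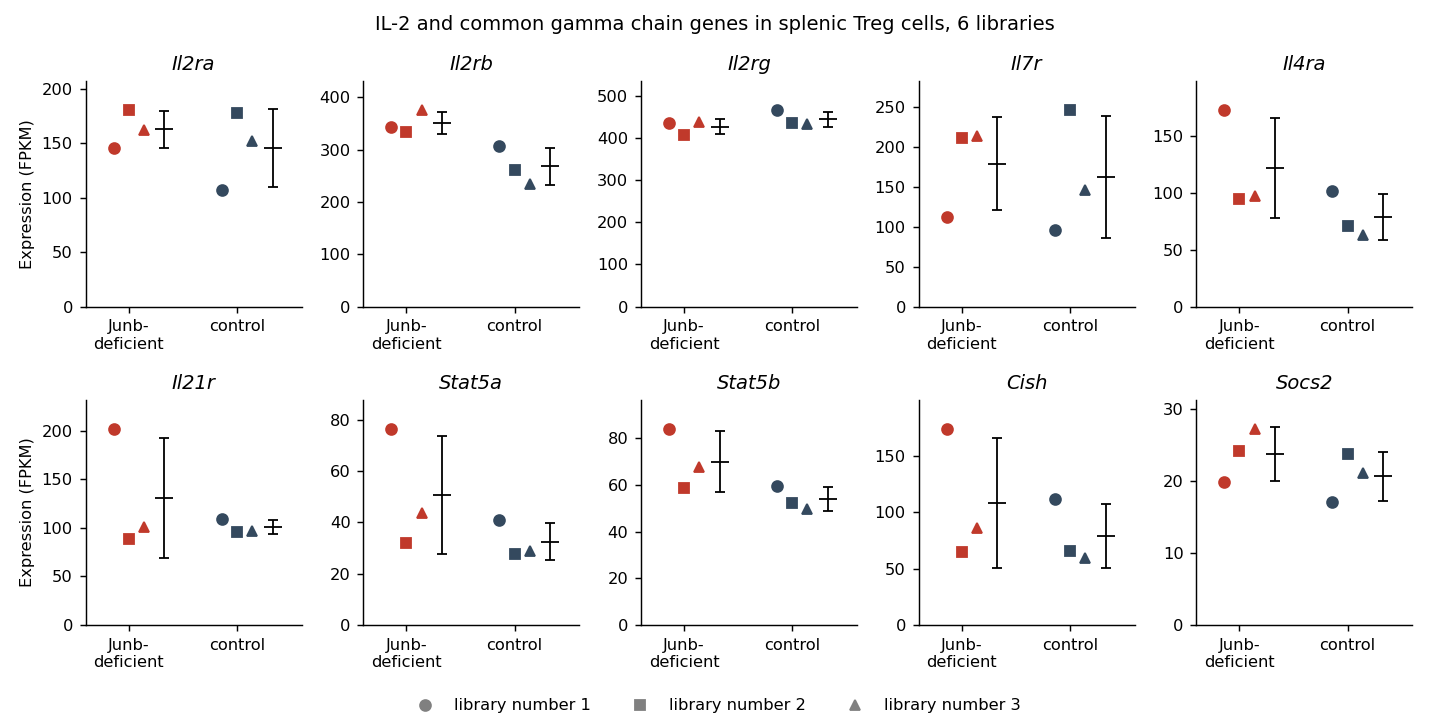
Expression (FPKM) of the 10 genes in each library, *Junb*-deficient left of control, with symbols for the library numbers and the group mean ± SD (n = 3) as a bar. *Il2rb* is the only gene whose *Junb*-deficient libraries (334 to 375 FPKM) all lie above all controls (235 to 306 FPKM).

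The signalling chains of the IL-2 receptor were the most abundant of the set. *Il2rg* was at 435, 406 and 439 FPKM in *Junb*-deficient 1, 2 and 3 and at 466, 435 and 434 in control 1, 2 and 3. The ranges overlapped between 434 and 439 FPKM, where *Junb*-deficient 1 and 3 and control 2 and 3 lay. *Il2rg* varied least among the 10, its highest library being 1.146 times its lowest. Means were 427 ± 17.8 FPKM in *Junb*-deficient and 445 ± 18.1 in control libraries (SD, n = 3), with a log2 difference of -0.059 (95% confidence interval -0.56 to 0.44), whose sign turned under quantile scaling (0.28) and a length correction (0.066). The gene lies on chromosome X (98459717 to 98463594), and its level bears on the receptors that share the gamma chain.

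*Il2rb* (chromosome 15, 78310983 to 78325496) encodes the chain that IL-2 and IL-15 share. It was at 344, 334 and 375 FPKM in *Junb*-deficient 1, 2 and 3 and at 306, 262 and 235 in control 1, 2 and 3. Every *Junb*-deficient library was above every control, which held for 1 of the 10 genes and for 4.58% of all genes tested, while 0 of the 10 lay wholly below, as 6.36% of all genes did. Means were 351 ± 21.5 and 268 ± 35.99 FPKM (SD, n = 3), and the log2 difference of 0.39 (95% confidence interval -0.10 to 0.89) had adjusted p = 0.834 in limma. Without both libraries numbered 1 *Il2rb* rose (log2 difference 0.51, adjusted p = 0.132 in limma), as it did under quantile scaling (0.64). The ratio of *Il2rg* to *Il2rb* was 1.27, 1.22 and 1.17 in *Junb*-deficient 1, 2 and 3 and 1.52, 1.66 and 1.84 in control 1, 2 and 3. That these groups did not overlap largely restates the *Il2rb* values, since *Il2rg* varied little.

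*Il2ra* (chromosome 2, 11564419 to 11614818) was at 146, 180 and 162 FPKM in *Junb*-deficient 1, 2 and 3 and at 107, 178 and 152 in control 1, 2 and 3. The groups overlapped, and control 1 was the lowest. The log2 difference was 0.19 (95% confidence interval -0.38 to 0.75), and without control 1 it was -0.019. Cells were sorted on its protein, so this is the level among cells that had passed that gate. Per library, *Il2rb* was 1.85 to 2.35 times as abundant as *Il2ra* in *Junb*-deficient and 1.47 to 2.87 times in control libraries.

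The receptors for the other cytokines fell into 2 patterns over the libraries. *Il7r*, the IL-7 receptor chain that is high on resting T cells, was at 112, 211 and 214 FPKM in *Junb*-deficient 1, 2 and 3 and at 95.7, 246 and 146 in control 1, 2 and 3. The libraries numbered 1 were the lowest of each group, and the log2 difference was 0.19 (95% confidence interval -0.76 to 1.13) or -0.14 without control 1, and 0.49 without *Junb*-deficient 1. *Il4ra*, the chain that the receptors for IL-4 and IL-13 share, and its neighbour *Il21r*, 23956 bases away on chromosome 7, went the other way. *Il4ra* was at 173, 95.01 and 97.9 FPKM in *Junb*-deficient 1, 2 and 3 and at 102, 71.2 and 63.3 in control 1, 2 and 3.

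Within each number *Il4ra* was higher in the *Junb*-deficient library, 1.70, 1.33 and 1.55 times its control for numbers 1, 2 and 3, although the groups overlapped because control 1 lay above *Junb*-deficient 2 and 3. Its means were 122 ± 44.2 FPKM in *Junb*-deficient and 78.7 ± 20.3 in control libraries (SD, n = 3). The log2 difference of 0.60, the largest of the 10 with all 6 libraries, had a 95% confidence interval of -0.10 to 1.30 unpaired and 0.21 to 0.98 with the replicate block. Adjusted p was 0.834 in unpaired limma (unadjusted 0.0840) and 0.233 with the block (unadjusted 0.00733). Without *Junb*-deficient 1 the log2 difference was 0.32, below the 0.49 of *Il7r* and the 0.41 of *Il2rb* in that fit. *Il4ra* also rose without both libraries numbered 1 (0.52, adjusted p = 0.102) and without control 1 (0.79, adjusted p = 0.186), and over all limma alternatives adjusted p ran from 0.102 to 0.9998.

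*Il21r* was at 202, 88.7 and 101 FPKM in *Junb*-deficient 1, 2 and 3 and at 109, 96.1 and 96.9 in control 1, 2 and 3. Its difference rested on a single library, *Junb*-deficient 1, and the other 5 lay between 88.7 and 109 FPKM. The log2 difference was 0.28 (95% confidence interval -0.46 to 1.02), and -0.086 without that library. B cells carry both *Il4ra* and *Il21r*, and *Junb*-deficient 1 also had the highest B cell sum (54.6 FPKM, against 23.5 to 29.6 in the others), whose part in these levels was not tested.

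**Figure D2:**
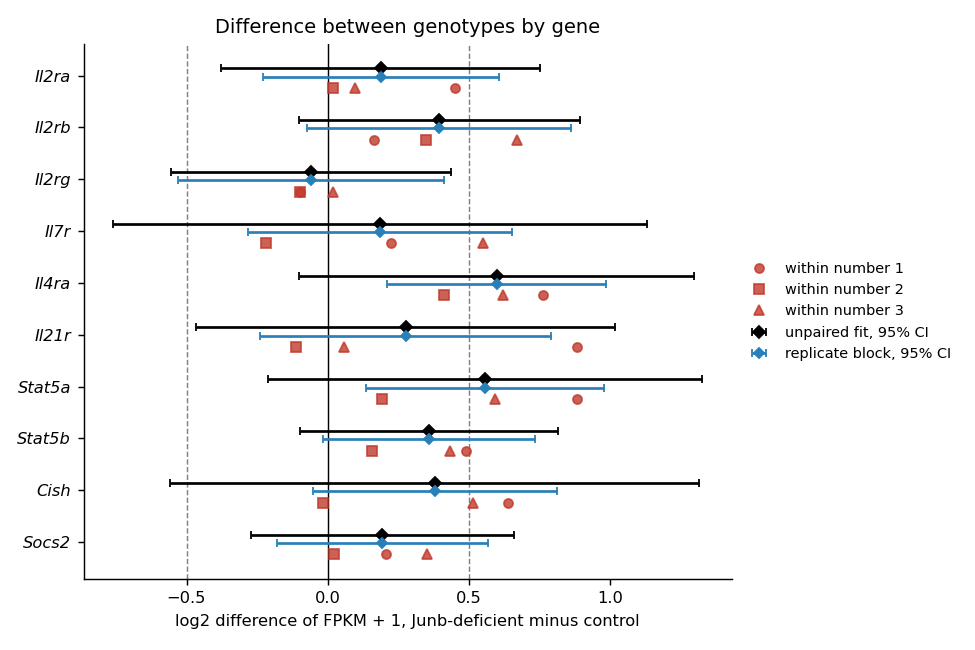
Log2 difference (FPKM + 1), *Junb*-deficient minus control, for each of the 10 genes in the unpaired fit (black) and with the replicate block (blue), with 95% confidence intervals, and within each library number (red symbols). Dashed lines mark 0.5 in either direction, and the blue intervals of *Il4ra* (0.21 to 0.98) and *Stat5a* (0.14 to 0.98) exclude 0. The pairing behind the blue intervals and the red symbols was chosen from these same data.

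Both STAT5 genes leaned up in *Junb*-deficient cells. *Stat5a* was at 76.5, 32.0 and 43.8 FPKM in *Junb*-deficient 1, 2 and 3 and at 41.0, 27.9 and 28.7 in control 1, 2 and 3. The *Junb*-deficient library was the higher in every number, by 1.87, 1.148 and 1.53 times, and *Junb*-deficient 2 lay below control 1. Means were 50.8 ± 23.0 and 32.5 ± 7.34 FPKM (SD, n = 3), and the log2 difference was 0.56, with a 95% confidence interval of -0.21 to 1.33 unpaired and 0.14 to 0.98 with the block. Adjusted p was 0.839 in unpaired limma (unadjusted 0.132) and 0.265 with the block (unadjusted 0.0157). *Stat5a* also rose unpaired without *Junb*-deficient 2 (0.84), while without *Junb*-deficient 1 its log2 difference was 0.22. With the block and a length correction the log2 difference was 0.46 (unadjusted 0.0363), under the threshold of 0.5, so that call ended. Over all limma alternatives its adjusted p ran from 0.232 to 0.9998.

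*Stat5b* was at 84.0, 58.6 and 67.6 FPKM in *Junb*-deficient 1, 2 and 3 and at 59.6, 52.5 and 49.8 in control 1, 2 and 3. Again it was higher within every number, by 1.41, 1.12 and 1.36 times, and *Junb*-deficient 2 lay just below control 1. The log2 difference was 0.36 (95% confidence interval -0.10 to 0.82, block -0.017 to 0.73), and 0.22 without *Junb*-deficient 1. It passed under quantile scaling (0.50) and under no other alternative run. In each of the 6 libraries *Stat5b* was more abundant than *Stat5a*, by 1.10 to 1.83 times in *Junb*-deficient and 1.45 to 1.88 times in control libraries. Altogether 6 of the 10 genes (*Il2ra*, *Il2rb*, *Il4ra*, *Stat5a*, *Stat5b* and *Socs2*) were higher within all 3 numbers, against 15.7% of all genes, and 0 were lower within all 3, against 22.3%. These counts rest on the pairing chosen from these data. *Il2ra* in *Junb*-deficient 3 (162 FPKM), for example, lay below control 2 (178 FPKM).

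The 2 STAT5-induced inhibitors differed in which libraries were high. *Cish* (chromosome 9, 107198357 to 107205115), whose protein binds IL-2 receptor and T cell receptor components, was at 174, 65.2 and 85.8 FPKM in *Junb*-deficient 1, 2 and 3 and at 111, 66.0 and 59.7 in control 1, 2 and 3. The library numbered 1 was the highest of each group, and the log2 difference of 0.38 (95% confidence interval -0.56 to 1.31) was -0.023 without *Junb*-deficient 1. *Socs2* (chromosome 10, 94847996 to 94879814), best known as a brake on growth hormone signalling, was at 19.9, 24.2 and 27.3 FPKM in *Junb*-deficient and 17.1, 23.8 and 21.2 in control 1, 2 and 3. Here the library numbered 1 was the lowest of each group, and the log2 difference was 0.19 (95% confidence interval -0.27 to 0.66). It was 0.069 without control 1, 0.092 without *Junb*-deficient 3 and 0.034 with the length correction, and 0.31 without *Junb*-deficient 1. The ratio of *Cish* to *Socs2* was 8.76, 2.70 and 3.15 in *Junb*-deficient 1, 2 and 3 and 6.51, 2.78 and 2.82 in control 1, 2 and 3, highest in the library numbered 1 of each group.

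In order of mean level the 10 genes ran *Il2rg*, *Il2rb*, *Il7r*, *Il2ra*, *Il21r*, *Il4ra*, *Cish*, *Stat5b*, *Stat5a* and *Socs2* in *Junb*-deficient libraries. The order was the same in controls except that *Cish* and *Il4ra* (79.0 and 78.7 FPKM) changed places. In *Junb*-deficient libraries, the ranges of neighbours in this order overlapped from *Il7r* down to *Stat5a*, so their order within that stretch does not exceed the spread. In controls they overlapped from *Il2rb* to *Il4ra*, and *Stat5b*, *Stat5a* and *Socs2* were apart.

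The pattern over libraries was described next, since several genes differed more between libraries of 1 genotype than between genotype means. Over the 6 libraries *Stat5a* followed *Stat5b* (Pearson r = 0.97), *Cish* (0.96) and *Il4ra* (0.95), and *Il7r* followed *Socs2* (0.91), while *Il2ra* ran opposite to *Il2rg* (-0.84). These are descriptions over 6 points that share depth, scaling and the 2 libraries numbered 1. Of 14 genes induced through the T cell receptor, 8 were highest in the library numbered 1 of both groups (*Nr4a1*, *Nr4a2*, *Nr4a3*, *Egr1*, *Egr3*, *Fosb*, *Irf4* and *Nfkbid*), *Tnfrsf9* was lowest in both, and 5 were neither (*Egr2*, *Fos*, *Jun*, *Cd69* and *Myc*). Among the 8, *Nr4a1* was at 837, 80.5 and 82.6 FPKM in *Junb*-deficient 1, 2 and 3 and at 491, 71.1 and 70.0 in control 1, 2 and 3, and *Nr4a3* at 253, 7.51 and 10.2 against 126, 6.71 and 5.77. The summed level of the 14 was 2437, 1069 and 764 FPKM in *Junb*-deficient 1, 2 and 3 against 1667, 1054 and 840 in control 1, 2 and 3, and without *Nr4a1* it was 1600, 989 and 681 against 1176, 983 and 770. *Cish*, *Il4ra*, *Il21r*, *Stat5a* and *Stat5b* were highest and *Il2ra*, *Il7r* and *Socs2* lowest in the libraries numbered 1 of each group. The part of this in the members' levels was not tested. In this list, 1 of 14 genes rose (*Egr3*, log2 difference 0.86) and 0 fell, and the call of *Egr3* was lost without *Junb*-deficient 1 or 3, without control 2 or 3 (0.66, 0.86, 0.70 and 0.66) and with no filter.

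**Figure D3:**
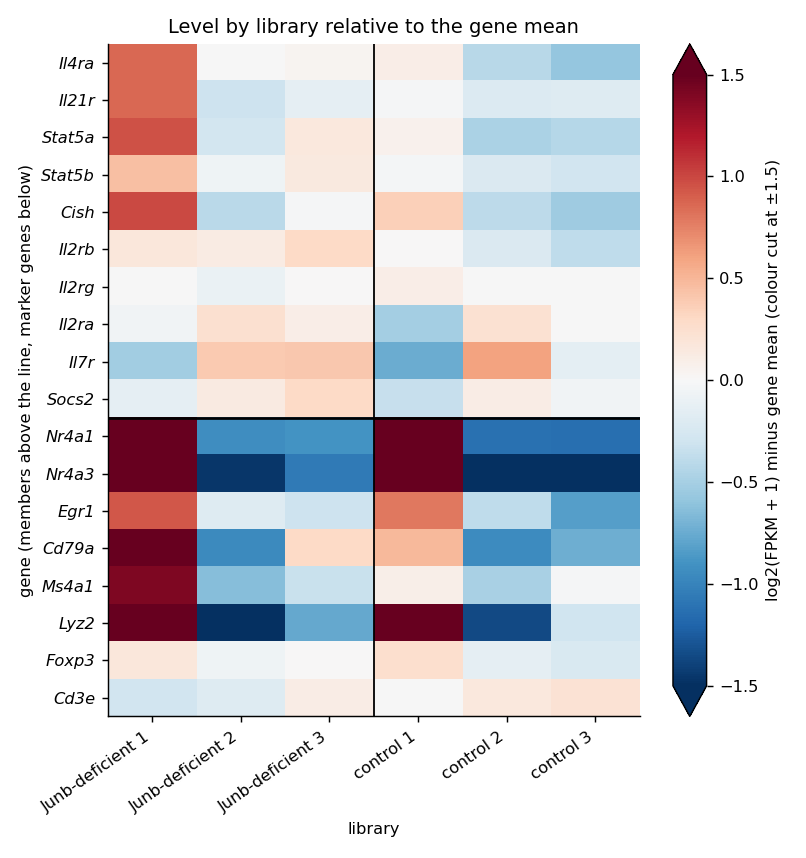
Level of each gene in each library relative to that gene's mean, on the log2(FPKM + 1) scale (red above, blue below, colour cut at 1.5 in either direction), *Junb*-deficient libraries left of controls, with marker genes below the line. *Il4ra*, *Il21r*, *Stat5a*, *Stat5b* and *Cish* were highest in *Junb*-deficient 1 (173, 202, 76.5, 84.0 and 174 FPKM), where *Nr4a1* (837 FPKM) and *Cd79a* (14.1 FPKM) were highest too.

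For the 5 members whose highest library was at least 2 times their lowest, the genes most like them over the 6 libraries were sought among 8786 genes of at least 5 FPKM. *Il4ra* was matched most closely by *Cbfa2t2* and *Fam13b* (Pearson r = 0.998 and 0.991), *Stat5a* by *Pex14* and *Hmgxb3* (0.995 and 0.993), *Cish* by *Gm5422* and *Sf3a1* (0.996 and 0.995), *Il21r* by *Akap10* and *Pmepa1* (0.988 and 0.986), and *Il7r* by *Zkscan3* and *Zfp157* (0.995 and 0.987). With 6 points many genes come this close, 94 of them above 0.95 for *Il4ra* and 167 for *Cish*.

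The rest of the pathway was described by lists of ligands, other receptor subunits, kinases, other STAT factors, inhibitors, the PI3K and MAPK arm, and STAT5 targets. Of 68 genes, 67 were in the table and 60 were tested, and 1 rose (*Stat3*) while 2 fell (*Gzmb* and *Prdm1*), against the 1.67% and 2.89% of all genes given above. Their median log2 difference was 0.16, and 43 of the 60 were positive, where 44.0% of all genes were. With the replicate block 2 rose and 3 fell, where 3.58% and 7.20% of all genes did.

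Among ligands, *Il2* was low, as is usual for Treg cells, which do not make IL-2 well, while *Il4* was highest in the library numbered 3 of each group. *Il2* was at 0.974, 2.45 and 6.204 FPKM in *Junb*-deficient 1, 2 and 3 and at 2.83, 2.34 and 2.84 in control 1, 2 and 3, and *Il4* at 2.66, 4.86 and 10.96 against 1.27, 4.95 and 10.98. Neither passed the test (log2 differences -0.0012 and 0.22), and the ranges overlapped. *Il7*, *Il9*, *Il15*, *Il21* and *Tslp* stayed under the filter, at no more than 1.81 FPKM in any library.

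Of the other receptor subunits, all 3 tested leaned down. *Il15ra*, which presents IL-15, was at 9.02, 9.03 and 6.79 FPKM in *Junb*-deficient 1, 2 and 3 and at 10.02, 10.1 and 14.5 in control 1, 2 and 3, so the groups did not overlap (log2 difference -0.43, adjusted p = 0.834 in limma, and -0.26 without control 3). *Crlf2*, the receptor chain for TSLP, was at 28.6, 17.5 and 19.5 FPKM against 40.8, 25.3 and 28.2 (log2 difference -0.50), lower within every number, and fell with the replicate block (adjusted p = 0.252 in limma, unadjusted 0.0111). With the length correction that call ended (-0.31), and without control 1 the unpaired value was -0.31. *Il9r* was at 5.16 to 7.39 FPKM in *Junb*-deficient libraries and at 23.9, 4.93 and 5.95 in control 1, 2 and 3, so its log2 difference of -0.51 was 0.14 without control 1. *Il13ra1* was at 0.137 to 0.842 FPKM and was not tested.

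The kinases gave no call. *Jak1* and *Jak3*, which sit on the beta and gamma chains, were at 169 to 200 and 53.5 to 63.7 FPKM in *Junb*-deficient and at 138 to 178 and 45.1 to 56.1 in control libraries, with log2 differences of 0.20 and 0.26, and *Jak2* had 0.20. Among STAT factors, *Stat3*, which IL-21 and IL-6 signal through, was at 125, 76.7 and 104 FPKM in *Junb*-deficient 1, 2 and 3 and at 78.8, 57.8 and 54.9 in control 1, 2 and 3. It rose by a log2 difference of 0.66 (adjusted p = 0.834 in limma, unadjusted 0.0302) and was higher within every number, with *Junb*-deficient 2 just below control 1. The call ended without *Junb*-deficient 1 or 3 or control 2 or 3 (0.50, 0.63, 0.60 and 0.56) and with a length correction (0.50). *Stat6*, the transducer of IL-4, was at 93.6 to 111 FPKM in *Junb*-deficient and 78.8 to 84.8 in control libraries, groups that did not overlap, with a log2 difference of 0.33, and *Stat2* had 0.20.

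Of 14 inhibitors 0 rose and 0 fell, although 13 differences were positive, with a median of 0.19. Those of smallest p were the suppressor *Socs7* (0.48), the phosphatase *Ptpn2* (-0.26) and the STAT inhibitor *Pias4* (0.23). In the PI3K and MAPK arm, 0 of 18 rose or fell. *Akt2*, a kinase downstream of PI3K, was at 37.5 to 41.5 FPKM in *Junb*-deficient and 28.9 to 31.9 in control libraries (log2 difference 0.36, under the threshold of 0.5), and *Pik3cd*, a catalytic subunit of PI3K in lymphocytes, had 0.30. The mTORC1 subunit *Rptor* had 0.52 and rose with the block (adjusted p = 0.275 in limma, unadjusted 0.0201), a call that ended with the length correction (0.30).

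The STAT5 targets were mixed. Of 14, 0 rose and 2 fell, where 1.67% and 2.89% of all genes did, and 10 were positive, where 44.0% of all genes were. Their median was 0.14. The list was not divided by whether STAT5 raises or lowers each gene. *Gzmb*, a cytotoxic protease, was at 0.666, 1.22 and 6.35 FPKM in *Junb*-deficient 1, 2 and 3 and at 55.1, 16.7 and 33.6 in control 1, 2 and 3, and *Prdm1*, which encodes Blimp1, at 4.20, 4.33 and 5.97 against 14.9, 7.38 and 6.37. Neither pair of groups overlapped. The list was chosen with results of these samples known, so the fall of these genes is not independent evidence of its direction. *Prdm1* (log2 difference -0.78) lost its call when any of control 1, *Junb*-deficient 1 and *Junb*-deficient 2 was left out (-0.44, -0.70 and -0.72), without both libraries numbered 1 (-0.37), with median-ratio scaling (-0.75) and with no filter. The study, from its own analysis, placed *Prdm1* among genes that BATF promotes and JunB does not, and names *Gzmb* among those that need JunB. *Ccnd2*, a cyclin of the G1 phase, had a log2 difference of 0.50 that did not pass. Of the Treg genes used to check the cell type, *Ctla4* fell (-0.70), a call that ended without *Junb*-deficient 3 (-0.60) and with quantile scaling (-0.47), and *Ikzf2* had -0.23.

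**Figure D4:**
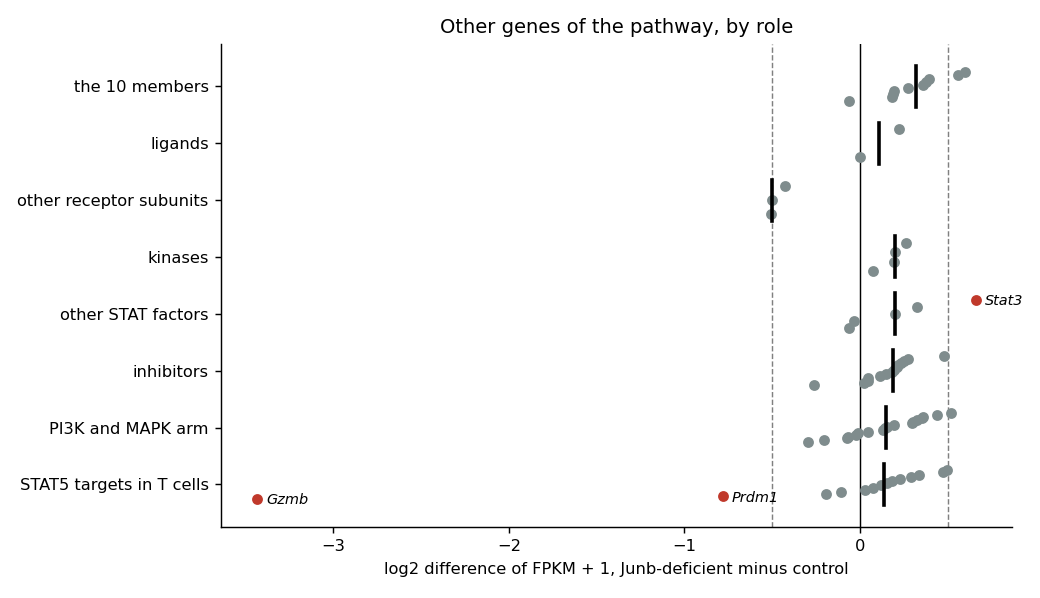
Log2 difference (FPKM + 1), *Junb*-deficient minus control, of each tested gene (point) by role in the pathway, with the median of each list as a black bar and dashed lines at 0.5 in either direction. Red points passed the study's thresholds: *Stat3* (0.66), *Prdm1* (-0.78) and *Gzmb* (-3.43), and none of the 10 genes of the set.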

How the data were processed

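RNA of FACS-sorted splenic Treg cells was read as paired ends after a stranded mRNA library kit. The deposited values are FPKM, made by the authors with TopHat2 and Cufflinks on mm9 per the labels. The sources used here do not give the annotation, any scaling between libraries or the treatment of reads with several matches. All 37305 gene IDs were found in GENCODE vM1, and 0 pairs of libraries were identical. The number 1 was given by elimination to the library of each genotype whose title has none.

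The 11781 genes whose FPKM averaged 1 or more were fitted on log2(FPKM + 1) with limma 3.58.1 (R 4.3.3, variance trend, 2-sided, Benjamini-Hochberg). On this scale the change of low genes is understated. An exact test of 3 against 3 libraries could not go below 0.1. Relative depth was the most frequent ratio to control 1 among the lowest FPKM values. No read counts are known, so no counting intervals are given. The fit was also run on simulated data with independent noise in each library. Those data lack the differences that libraries of the same number share, so that run cannot check the pairing.

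Across 11781 genes, libraries' deviations from their group mean correlated by 0.57, 0.42 and 0.24 within numbers 1, 2 and 3. Other pairs ran from -0.53 to 0.41. The 0.41 was *Junb*-deficient 2 with control 3, so number 2 was not clearly told from number 3. The numbers were taken to pair the libraries, from these data and not from a label. Block p values and intervals rest on that choice, as do comparisons within a number. Alternatives were another pseudocount (0.1), filter (none, mean of 5) or scaling (median-ratio, quantile), no trend, the replicate block, and left-out libraries. Added after seeing the data was a loess correction (span 0.5) for exon length, library by library, with and without the block.

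The members and lists were chosen with earlier results of these data known. Named genes are the 10 members, *Junb*, *Foxp3* and *Cd4*, from each list those past the study's thresholds or, where under 3, the 3 of smallest p, and the 2 genes most like each member that varied at least 2-fold. *Hras* was not analysed here, and 1 marker gene is not reported here. Figures were made with Python 3.11.15 and matplotlib 3.10.9.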

Additional observations from a re-analysis of the deposited data

How the results depend on the processing

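Of 160 member values under 16 alternatives, 143 kept their direction and call, 9 newly passed the study's thresholds and 8 changed sign. The sign changes were those of *Il2rg* with quantile scaling (0.28) and the length correction, with and without the block (0.066), *Il21r* without both libraries numbered 1 (-0.028), and, leaving out each library in turn, *Il2ra* (-0.019 to 0.35), *Il7r* (-0.14 to 0.53), *Il21r* (-0.086 to 0.50) and *Cish* (-0.023 to 0.68). No member passed the adjusted test under any alternative run. The length correction with the block kept the call of *Il4ra* (0.57) and ended that of *Stat5a* (0.46). The replicate block alone changed the call of no member but these 2. The cause of these changes was not tested. The counts over all genes moved most when control 1 was left out (788 rose and 1532 fell), and little without *Junb*-deficient 1 (194 and 328). Against 197 genes that rose and 340 that fell, the replicate block gave 422 and 848, leaving out both libraries numbered 1 gave 780 and 1528 (103 and 159 past the adjusted test), and leaving out each library in turn gave 95 to 788 and 204 to 1532. The counts were 119 and 292 without *Junb*-deficient 3, 112 and 222 without control 2, and 95 and 204 without control 3. Under quantile scaling 257 rose and 263 fell. A mean FPKM of at least 5 gave 131 that rose, and the length correction with the block 396 that rose. The adjusted test passed 1 lower gene with the block (with or without the length correction), and 0 to 1 leaving out single libraries. Leaving out each library, the values of other named genes that changed sign ran from -0.019 to 0.22 for *Foxp3*, -0.41 to 0.79 for *Il4*, -0.49 to 0.44 for *Il2*, -0.89 to 0.14 for *Il9r*, -0.022 to 0.40 for *Jak2*, -0.091 to 0.36 for *Myc*, -0.0021 to 0.74 for *Klrb1c*, -0.93 to 0.18 for *Itgam* and -1.41 to 0.59 for *Lyz2*. Without both libraries numbered 1, *Il4* had -0.012, *Il2* 0.48, *Il9r* 0.25 and *Myc* -0.14. *Il2* had 0.026 with median-ratio scaling and 0.22 with the length correction, with and without the block.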
